A study of Arabidopsis thaliana with 9 samples.

Results

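Transcript levels of 10 Arabidopsis thaliana genes that start flowering were compared between leaves of plants with an unmutated and with a mutated inserted histone H3 gene. The genes were a fixed list of gene IDs, chosen with earlier results of these data known, and all are reported. They were FT (AT1G65480), TSF (AT4G20370), CO (AT5G15840), FD (AT4G35900), SOC1 (AT2G45660), AGL24 (AT4G24540), FUL (AT5G60910), LFY (AT5G61850), AP1 (AT1G69120) and CAL (AT1G26310). All 10 were found among the 33302 features of the deposited table, each under a value of its own.

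The 4 RNA libraries came from leaves of 21-day-old plants of the Columbia-0 background, grown in soil at 23 °C with 16 h light and 8 h dark. Plants of both groups carried a transgenic insertion of the H3 gene AT4G40040 beside their own H3 genes. The insertion was unmutated in the 2 WT libraries, whereas in the 2 K36M libraries it coded for methionine in place of lysine 36. Neither group is therefore an untransformed plant. The promoter and copy number of the insertion, and whether K36M plants for RNA carried it on one or both chromosomes, were not given in the sources used here. Effects of the mutation cannot be told apart from those of any other difference between the groups' insertions. Per the labels, both libraries of a group are biological duplicates. The question put by the study's design was which transcripts differ where methylation of H3 lysine 36 is reduced. ChIP libraries of the series were not analysed here.

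Flowering in long days is known to begin in the leaf. In the phloem of the leaf vein CO, a transcription factor kept stable by evening light, switches on FT and its close relative TSF, whose small proteins move to the shoot tip. There FT binds the bZIP factor FD and turns on SOC1, FUL and AP1, MADS-box factors, and with AGL24, SOC1 raises LFY. LFY, AP1 and its near relative CAL then give the new meristem the identity of a flower. FT and SOC1 are called integrators because long days, cold, age and temperature all act on them, and MADS-box repressors of the FLC family and SVP hold them down. H3 with methionine at position 36 is known to block methylation of that residue on other H3 copies.

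Expression was deposited as FPKM, in which fragments are divided by gene length and library size, a unit in which levels of different genes can be compared. The FPKM sums ranged from 766727 to 2150314 per library, and a single short model, AT2G01021, took 1.39% to 34.6% of them. WT replicate 1 stood apart, with Pearson r across genes of 0.821 to 0.834 to the other libraries, which correlated with each other at 0.937 to 0.950. All 271 plastid and mitochondrial features were listed at 0 in every library, so a listed 0 is not a measure of absence, and it is given below as a library's value only. To check the leaf label, 6 mesophyll markers were read: none was at 0, and their FPKM summed to 39824 and 91613 in WT and 47559 and 53853 in K36M. The summed level of 10 shoot meristem markers was 16.2 and 34.2 FPKM for WT, with 39.5 and 30.4 FPKM for K36M, and CLV1 alone made up 15.1 FPKM of the first of these sums. In WT replicate 1 the defining markers STM and WUS were at 0, and in WT replicate 2 CLV3 was. STM was at 9.73 FPKM in WT replicate 2 and at 10.6 and 7.89 FPKM in K36M. The mesophyll markers show that leaf was present, and cannot show whether shoot tip was present beside it. In whole leaves, fewer cells of a type and less RNA per cell cannot be told apart.

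No flowering gene passed the test between the genotypes over all features (limma, adjusted p = 0.9999 for each of the 6 tested, Benjamini-Hochberg, threshold 0.05). Of the 17738 features averaging at least 1 FPKM, 5 were called higher, 0.0282%, and 2 lower, 0.0113%. FT, FUL and AP1 had both K36M values above both WT values, 3 of the 10 genes and 3 of the 6 tested, and no gene had both below. Among all tested features 12.1% lay wholly above and 19.3% wholly below. FUL and AP1 had an unadjusted limma p below 0.05, at 0.045 and 0.032, beside the same adjusted p of 0.9999. With 2 libraries a group, the exact two-sided permutation test over the libraries cannot go below 0.333, the value that FT, FUL and AP1 had.

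Only FT, FD, SOC1, AGL24, FUL and AP1 reached the mean of 1 FPKM needed for the test. TSF, CO, LFY and CAL did not and are described by their values. AP1 reached it only through its K36M libraries, so its presence among the tested genes is not independent of its difference. In a fit with no filter, over 25789 features, none of the 10 genes was called (limma, adjusted p from 0.91 to 0.99, 1175 features at an unadjusted p below 0.05).

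**Figure D1:**
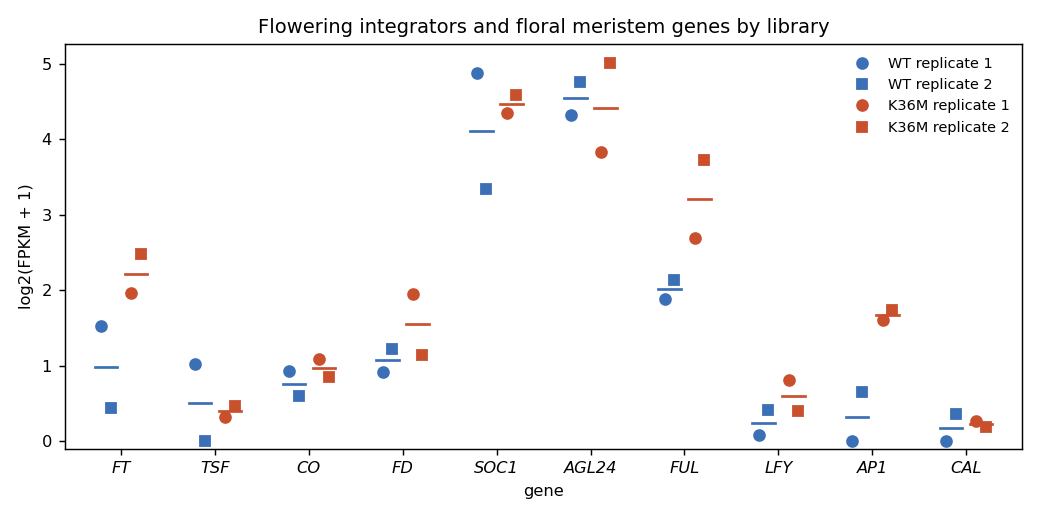
Level of each of the 10 flowering genes in each library, as log2(FPKM + 1); circles are replicate 1, squares replicate 2, and bars the mean of a group's 2 libraries. K36M points of FT, FUL and AP1 all sit above the WT points, while the groups overlap for the other genes; SOC1 and AGL24 are the most abundant.

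The order of the levels was similar in both groups at the top. AGL24 and SOC1 came first, with means of 22.6 and 18.8 FPKM in the WT libraries against 22.2 and 21.2 FPKM in the K36M libraries, and their libraries overlapped. Averaged over the 4 libraries, they lay above 80.5% and 78.7% of the features with a value above 0 in some library. FUL came next in both groups, with both libraries below those of SOC1 and above those of the next gene. FT followed in both groups. In WT, neighbours from FT down through FD, CO, TSF, AP1 and LFY to CAL overlapped, and their order is not resolved. In K36M, FT lay above AP1 in both libraries, AP1 and FD overlapped, FD lay above CO and CO above LFY, LFY and TSF overlapped, and TSF lay above CAL.

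The mobile signals and their activator were low in these leaves. FT stood at 1.89 and 0.361 FPKM in WT replicates 1 and 2, against 2.89 and 4.56 FPKM in the K36M replicates. Both K36M libraries were above both WT libraries, but the gap between WT replicate 1 and K36M replicate 1 was smaller than the gap between the 2 WT libraries. The means were 1.13 ± 1.08 and 3.73 ± 1.18 FPKM (SD, n = 2 each), a 3.31-fold ratio of means. On the log2(FPKM + 1) scale, which understates changes of low genes, the difference (K36M minus WT) was 1.23 ± 0.53 (SE; limma adjusted p = 0.9999), with a 95% interval from -0.07 to 2.53. Between libraries that share a replicate number, which was not shown to pair them, it was 0.43 for replicate 1 and 2.03 for replicate 2. The difference was 0.69 without WT replicate 2, the library in which FT was lowest, and 1.77 without WT replicate 1, and it was not called either way.

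The FT value of WT replicate 2 may rest on few fragments. Among 2664 genes under 1 FPKM in both replicate 2 libraries, 92.5% had values whose ratio, divided by a constant of 1.03, was a ratio of whole numbers no greater than 25, within 0.0001 on the natural log scale. In the other pairs of libraries the share was 1.71% to 2.77%. For FT the smallest such ratio was 1 in WT to 13 in K36M, for AP1 5 to 21, for CO 5 to 8, for FD 13 to 12, for LFY 1 to 1 and for CAL 2 to 1. The true fragment numbers may be multiples of these. The ratios show how coarse the values of the lowest genes may be, and this check was added after the values were seen.

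TSF, which acts beside FT, was at 1.03 and 0 FPKM for WT, with 0.255 and 0.384 FPKM for K36M. WT replicate 1 was the highest library and WT replicate 2 the lowest, so the K36M values lay between them. The differences were -0.70 within replicate 1 and 0.47 within replicate 2. CO, the activator of both, averaged 0.707 ± 0.271 FPKM for WT and 0.961 ± 0.225 FPKM for K36M (SD, n = 2 each). Its values were 0.899 and 0.515 FPKM in the WT libraries against 1.12 and 0.802 FPKM in the K36M libraries, with overlapping groups. In the RefSeq annotation the CO locus overlaps AT5G15843 and AT5G15845, and whether counting used strand is not given in the sources used here, so reads of CO and of these genes may not be separated. FD, the partner of FT at the shoot tip, was at 0.887 and 1.34 FPKM for WT, with 2.88 and 1.20 FPKM for K36M. Only K36M replicate 1 stood above both WT libraries, and the difference was 0.48 ± 0.49 (SE; limma adjusted p = 0.9999), or 0.07 without that library.

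**Figure D2:**
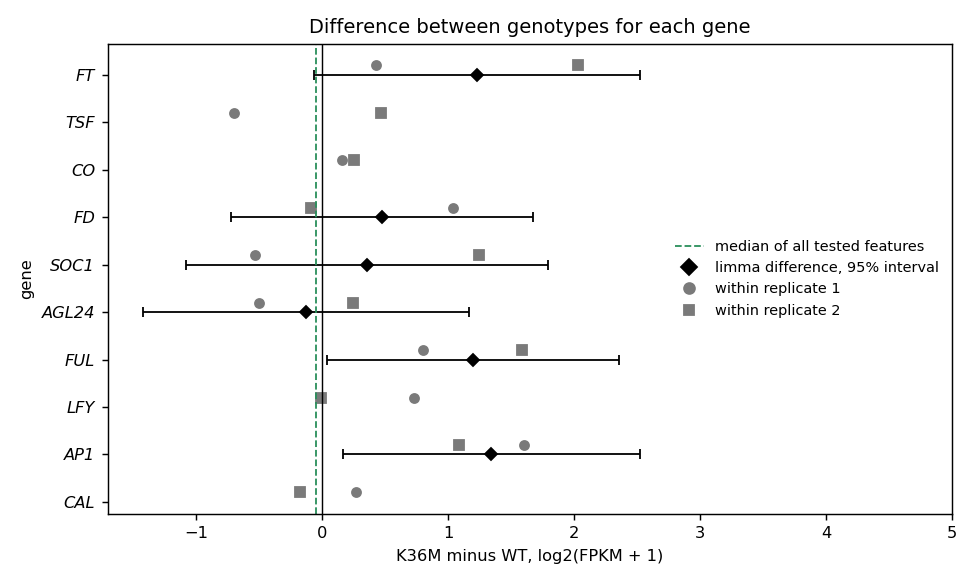
K36M minus WT on the log2(FPKM + 1) scale for each gene. Black diamonds with bars are the limma difference and its 95% interval for the 6 tested genes, grey circles and squares the differences within replicate 1 and replicate 2, and the dashed line the median of all tested features at -0.05. The intervals of FUL and AP1, with no adjustment for the number of features, lie above 0 and that of FT reaches -0.07; the differences of FD, SOC1, AGL24, TSF, LFY and CAL have opposite signs in the 2 replicates.

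Among the integrators acting at the shoot tip, FUL had the largest difference. FUL, which also shapes the fruit, stood at 2.71 and 3.38 FPKM in the WT libraries against 5.47 and 12.2 FPKM in the K36M libraries. Every K36M value exceeded every WT value, and the 2 K36M libraries lay farther apart than the 2 WT libraries. The means were 3.04 ± 0.475 and 8.83 ± 4.75 FPKM (SD, n = 2 each). The fitted difference was 1.20 ± 0.48 (SE; limma adjusted p = 0.9999), 0.80 within replicate 1 and 1.59 within replicate 2. It was 0.68 without K36M replicate 2, its highest library, and 1.71 without K36M replicate 1.

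SOC1 did not separate the genotypes. It was read at 28.4 and 9.15 FPKM for WT, with 19.4 and 23.0 FPKM for K36M. The WT libraries were the highest and the lowest of the 4, with both K36M libraries between them. The fitted difference of 0.36 ± 0.59 (SE; limma adjusted p = 0.9999) had a 95% interval from -1.08 to 1.79, which spans folds of 0.474 to 3.46. It was -0.53 within replicate 1 and 1.24 within replicate 2, and its sign turned to -0.41 without WT replicate 2.

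AGL24, a MADS-box partner of SOC1, was at 19.0 and 26.1 FPKM in the WT libraries against 13.2 and 31.2 FPKM in the K36M libraries. Here the K36M libraries were the extremes and the WT libraries lay between them. The difference was -0.13 ± 0.53 (SE; limma adjusted p = 0.9999; 95% interval from -1.42 to 1.17). It was 0.47 without K36M replicate 1 and 0.09 without WT replicate 2, in the opposite direction.

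The floral meristem gene AP1 had the largest fitted difference of the 6 tested genes. AP1 was listed at 0 in WT replicate 1 and stood at 0.573 FPKM in WT replicate 2, against 2.03 and 2.34 FPKM in K36M. The K36M libraries were close to each other and both above WT. AP1 was among the tested features only through its K36M values, so its rank among them is not independent of its difference. The difference was 1.34 ± 0.48 (SE; limma adjusted p = 0.9999), greater in size than that of 94.8% of the tested features. It was 1.60 within replicate 1 and 1.09 within replicate 2. Leaving out single libraries moved it between 1.02 and 1.67, and it was not called in any of these fits. With a pseudocount of 0.1 in place of 1 it was 3.14, with 1 of the WT values at 0.

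LFY, the master regulator of floral identity, was at 0.0569 and 0.333 FPKM for WT, with 0.749 and 0.324 FPKM for K36M. K36M replicate 1 was highest, and K36M replicate 2 was level with WT replicate 2. CAL, which acts redundantly with AP1, was at 0 and 0.282 FPKM in the WT libraries against 0.205 and 0.137 FPKM in the K36M libraries. Its groups overlapped, with WT replicate 2 highest, unlike AP1. AP1 and CAL, like FT and TSF, are related in sequence, and how the counting treated reads matching both was not given in the sources used here.

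**Figure D3:**
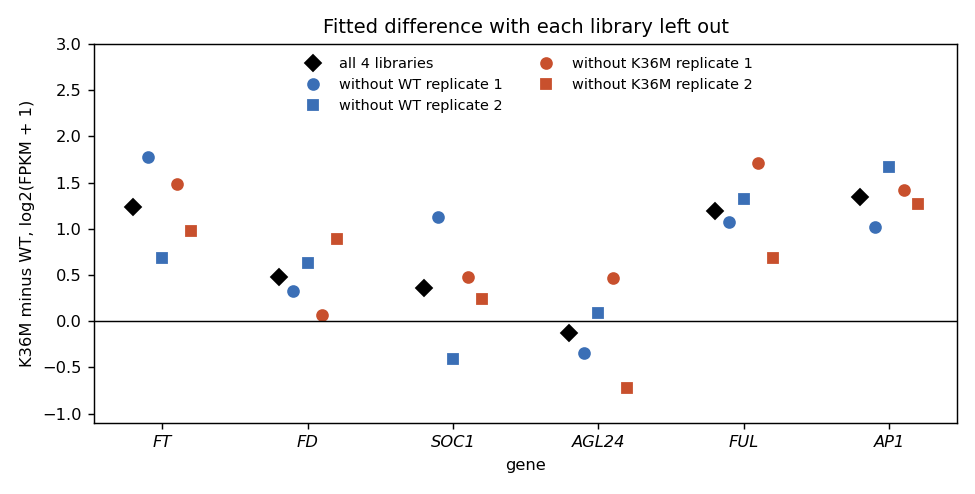
Fitted difference (K36M minus WT, log2(FPKM + 1)) of the 6 tested genes with all 4 libraries and with each library left out. FT lies between 0.69 and 1.77; the sign of FT, FUL and AP1, whose groups do not overlap, cannot turn in these fits, whereas SOC1 turns to -0.41 without WT replicate 2, and AGL24 takes both signs.

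The median difference of the 6 tested flowering genes was 0.84, beside -0.05 over all tested features. It is a description of the genes that passed the filter, since AP1 passed through its K36M values. Of all 10 genes, 8 had a difference above 0, but only 4 had one above 0 within both replicates. Which genes lay above WT depended on the library left out. Without WT replicate 1 they were FT, TSF, CO, SOC1, FUL and AP1, 6 genes, beside 30.0% of the tested features. Without WT replicate 2 they were FT, FD, FUL, LFY, AP1 and CAL, also 6, beside 39.4%. Without K36M replicate 1 they were FT, AGL24, FUL and AP1, 4 genes, beside 27.9%. Without K36M replicate 2 they were FT, CO, FD, FUL, LFY and AP1, 6 genes, beside 17.9%. In the same order 1, 2, 0 and 1 genes lay below WT, beside 44.8%, 40.8%, 26.8% and 34.3%. TSF, CO, LFY and CAL were not tested, whereas the shares are of tested features.

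The cofactors and downstream targets of LFY and AP1 were listed with 11 genes, of which 6 were tested, and none was called in either direction (limma, 4 at an unadjusted p below 0.05). In 5 of these 6 both K36M values lay above both WT values, beside 12.1% of all tested features, and the median difference was 1.49. Of these 5, SEP1, SEP3, AP3 and PI averaged under 1 FPKM in WT and passed the filter only through K36M, so the count and the median are not independent of the difference. With a mean of at least 5 FPKM required, SEP4 alone was left, at 0.10. SEP1 and SEP3, MADS-box partners of the floral organ genes, had differences of 1.46 ± 0.50 and 1.52 ± 0.52 (SE; limma adjusted p = 0.9999 each). AP3 and PI, which specify petals and stamens, had 1.94 ± 0.45 and 2.11 ± 0.52 (SE; limma adjusted p = 0.9999 each), with AP3 listed at 0 in both WT libraries. LMI1, a homeobox gene that LFY activates, was under the filter and listed at 0 in both WT libraries, with 1.97 and 0.903 FPKM in K36M. SEP2, also untested, was at 0.0464 and 0 FPKM for WT, with 1.02 and 1.42 FPKM for K36M. AG, untested as well, overlapped, at 1.04 and 0.177 FPKM for WT and 0.794 and 0.860 FPKM for K36M. LMI2, the remaining gene of the 5, was at 0.0483 and 2.77 FPKM for WT, with 3.59 and 2.98 FPKM for K36M. SEP4, known to be used outside flowers as well, was level at 10.8 and 9.17 FPKM in the WT libraries against 9.96 and 11.5 FPKM in the K36M libraries. The LFY coactivator UFO reached at most 0.104 FPKM in any library.

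Of the 6 tested shoot meristem markers, 4 had both K36M values above both WT values and none below, beside 12.1% and 19.3% of all tested features, and none was called (limma, 1 at an unadjusted p below 0.05). Of these 4, KNAT2, KNAT6 and CUC3 passed the filter only through their K36M values. KNAT6 had 0.317 and 1.03 FPKM for WT, with 3.64 and 2.39 FPKM for K36M. KNAT2 had 0.111 and 0.908 FPKM in the WT libraries against 2.12 and 1.77 FPKM in the K36M libraries. KNAT1 had a difference of 1.33 ± 0.66 and CLV1 one of -0.28 ± 0.40 (SE; limma adjusted p = 0.9999 each). Under the filter, CUC2 was at 0.212 and 1.11 FPKM for WT, with 0.477 and 0.360 FPKM for K36M. CUC1 was at 0.0828 and 0.610 FPKM for WT, with 0.588 and 0.742 FPKM for K36M, and both CUC genes overlapped between groups. WUS, at 0 and 0.114 FPKM for WT and 0.425 and 0.222 FPKM for K36M, lay above WT in both K36M libraries. So did CLV3, at 0.229 and 0 FPKM for WT and 0.472 and 0.733 FPKM for K36M. STM, which keeps the shoot meristem undifferentiated, was at 0 and 9.73 FPKM for WT, with 10.6 and 7.89 FPKM for K36M, so its K36M values did not exceed WT replicate 2 in both libraries. The list's median difference was 1.15, or 1.65 within replicate 1 and 0.27 within replicate 2, and 0.33 without WT replicate 1. The fitted differences of FUL and AP1 were 1.08 and 1.02 without that library. These are values of single genes and cannot be set against the median of a list. The part of meristem tissue in the values of the flowering genes was not tested.

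**Figure D4:**
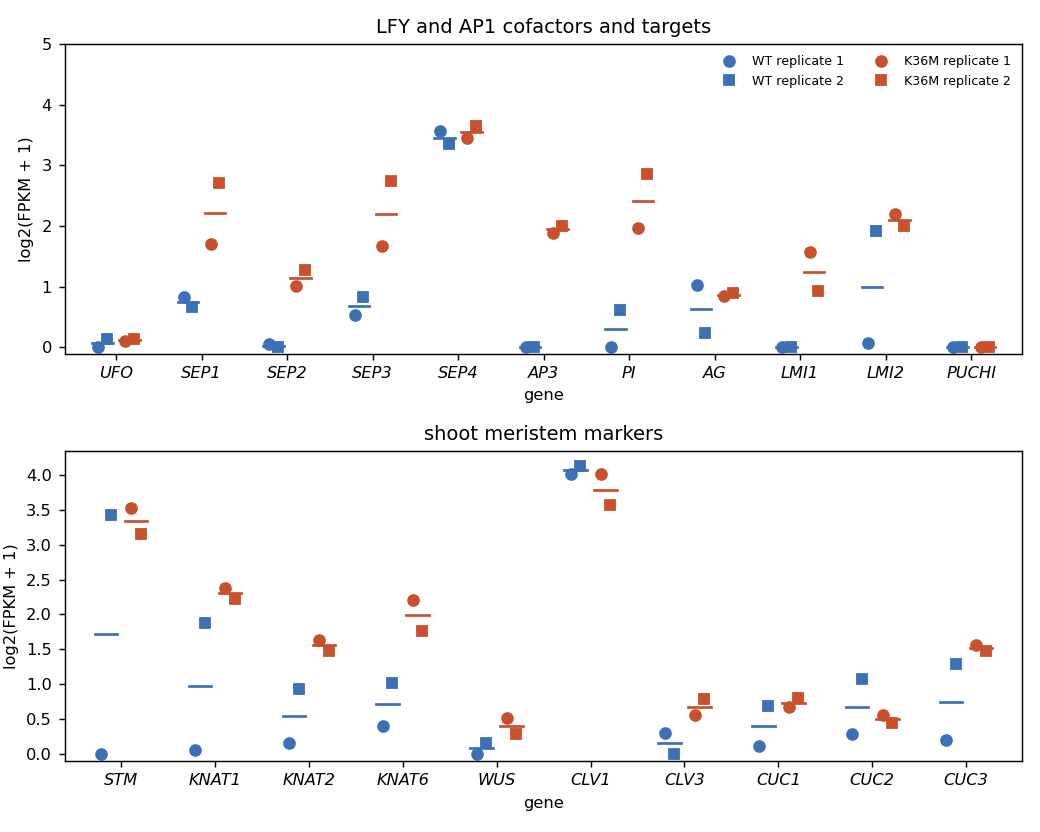
Cofactors and targets of LFY and AP1 (top) and shoot meristem markers (bottom) in each library as log2(FPKM + 1), drawn as for the flowering genes. SEP1, SEP2, SEP3, AP3, PI, LMI1 and LMI2 are higher in both K36M libraries than in both WT libraries, whereas AG overlaps. LMI2, STM, KNAT1 and CUC3 are low mainly in WT replicate 1.

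Upstream of FT, the photoperiod list held 24 genes, of which 23 were in the table and 22 were tested. None was called (limma, 1 at an unadjusted p below 0.05). Both K36M values lay above WT in 4 and below WT in 4, against 12.1% and 19.3% of all tested features, and the median difference was -0.11. It was -0.39 without WT replicate 1 and 0.12, in the opposite direction, without WT replicate 2. CDF1, a repressor of CO and FT transcription, was at 16.2 and 11.0 FPKM in the WT libraries against 27.8 and 30.2 FPKM in the K36M libraries, a difference of 1.06 ± 0.42 (SE; limma adjusted p = 0.9999). CDF5, of the same family, was at 0.967 and 0.936 FPKM for WT, with 2.27 and 2.88 FPKM for K36M. CDF1, CDF2 and CDF5 lay above WT in both K36M libraries, whereas CDF3 overlapped, with a difference of -0.01. CDF5 averaged under 1 FPKM in WT and passed the filter only through K36M, so its place in the count is not independent of its difference. MED25, a Mediator subunit, had a difference of -0.78 ± 0.46 and COL2, a CO-like gene, one of 0.63 ± 0.69 (SE; limma adjusted p = 0.9999 each). GI, which helps to remove CDF proteins, was at 0.850 and 3.70 FPKM in the WT libraries against 3.22 and 1.63 FPKM in the K36M libraries, with overlapping groups.

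Relatives and partners of FT were 12 genes with 8 tested. None was called (limma, 0 at an unadjusted p below 0.05), 1 gene, MFT, lay above WT in both K36M libraries, beside 12.1% of all tested features, and the median difference was -0.13, or 0.03 without WT replicate 1. FTIP1, needed for export of FT from companion cells, was at 4.40 and 2.53 FPKM for WT, with 3.04 and 2.46 FPKM for K36M. The 14-3-3 genes, whose proteins join FT to FD, overlapped between groups, GRF7 at -0.55 ± 0.49 and GRF3 at 0.28 ± 0.53 (SE; limma adjusted p = 0.9999 each). TFL1, the antagonist of FT, was under the filter at 0.581 and 0.758 FPKM in the WT libraries against 1.15 and 0.983 FPKM in the K36M libraries. MFT, a relative of FT known from seeds, was at 1.79 and 0.478 FPKM for WT, with 3.08 and 1.86 FPKM for K36M. The 7 markers of phloem, the tissue in which FT is made, summed to 542 and 527 FPKM in the WT libraries against 458 and 471 FPKM in the K36M libraries, with none at 0. SUC2, the sucrose carrier of companion cells, was at 113 and 119 FPKM for WT, with 101 and 87.5 FPKM for K36M. Among the 6 tested phloem markers the median difference was -0.21, or 0.02 without WT replicate 1, and none was called (limma, 0 at an unadjusted p below 0.05). SWEET12, SUC2, APL and SWEET11 had differences of -0.64, -0.29, -0.26 and -0.16. Of the 6, 5 had a difference below 0 and 1, PP2-A1, had one above 0, at 0.10. SWEET12 overlapped between groups, at 64.5 and 22.5 FPKM for WT, with 23.0 and 25.6 FPKM for K36M. The 6 mesophyll markers had a median difference of -0.18, or -1.0 without WT replicate 1 and 0.49 without WT replicate 2, with none called (limma, 0 at an unadjusted p below 0.05). CA1, RCA, RBCS1A and GAPA had -0.60, -0.59, -0.20 and -0.16, whereas LHCB3 had 0.04, the 1 mesophyll marker above 0.

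The repressors of FT and SOC1 held 15 genes, 14 tested and none called (limma, 2 at an unadjusted p below 0.05). Both K36M values lay below WT in 5 and above in none, beside 19.3% and 12.1% of all tested features, and the median difference was -0.44. Of these 5, MAF4 and MAF5 averaged under 1 FPKM in K36M and passed the filter only through WT. The 4 members with the largest differences were of the FLC family, MAF1 at -2.18 ± 0.49, MAF4 at -1.50 ± 0.46, MAF5 at -1.44 ± 0.90 and MAF2 at -0.99 ± 0.61 (SE; limma adjusted p = 0.9999 each). MAF5 was at 0.160 and 6.64 FPKM for WT, with 0.0596 and 0.140 FPKM for K36M, a difference of only -0.13 within replicate 1. MAF2 overlapped between groups, with differences of -2.11 within replicate 1 and 0.13 within replicate 2. FLC itself was under the filter at 0.0894 and 2.60 FPKM in the WT libraries against 0.305 and 1.01 FPKM in the K36M libraries, with overlapping groups. SVP, the partner of FLC, had a difference of -0.24 ± 0.43 (SE; limma adjusted p = 0.9999). The list's median was -0.08 without WT replicate 2.

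All 5 age pathway activators of the SPL family were tested, none was called (limma, 0 at an unadjusted p below 0.05), and all had a difference above 0, with a median of 0.85, or 0.38 without WT replicate 1. SPL4, which acts on FUL, SOC1 and AP1, was at 3.37 and 13.0 FPKM for WT, with 10.6 and 30.7 FPKM for K36M. SPL5 was at 3.70 and 10.3 FPKM in the WT libraries against 8.90 and 21.1 FPKM in the K36M libraries. In SPL4 and SPL5 the groups overlapped, with K36M replicate 2 highest and WT replicate 1 lowest. SPL9 and SPL15 had differences of 0.62 and 0.85, with both K36M values above WT, 2 of the 5 genes beside 12.1% of all tested features. Of 8 MADS-box genes related to SOC1, AGL42 alone was tested, through its K36M values, at 0.171 and 0.867 FPKM for WT, with 1.91 and 1.18 FPKM for K36M (difference 0.77 ± 0.50, SE; limma adjusted p = 0.9999). AGL72 and AGL79 were listed at 0 in every library.

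**Figure D5:**
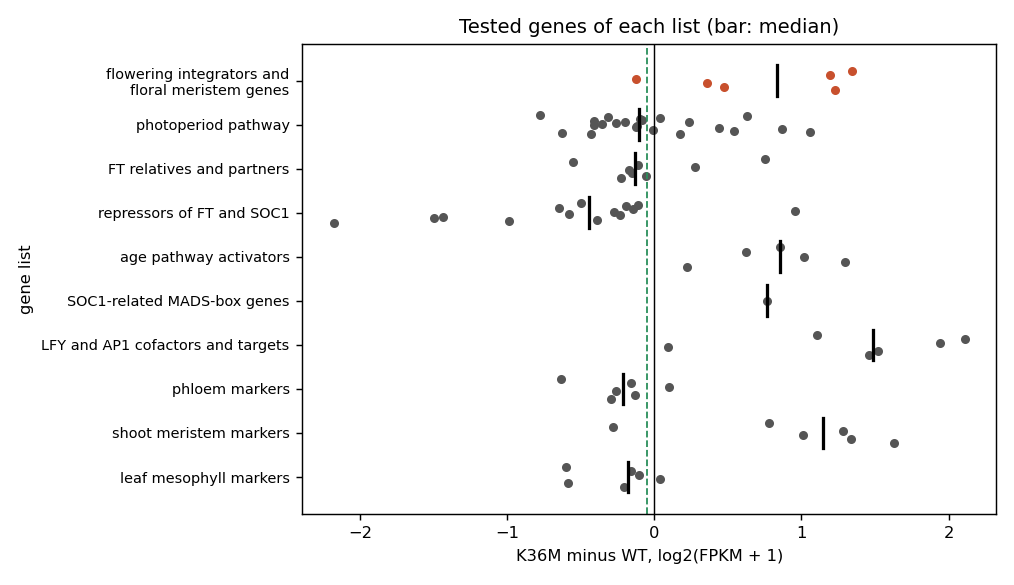
K36M minus WT (log2(FPKM + 1)) of every tested gene in each list, with the list's median as a bar, for genes that passed the filter, some through 1 group alone; the dashed line is the median of all tested features at -0.05. The flowering genes (orange, median 0.84) sit to the right with the age pathway (0.85), the LFY and AP1 targets (1.49) and the meristem markers (1.15), and the repressors to the left (-0.44).

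Likeness to FT was measured as the Euclidean distance between the 4 library values of log2(FPKM + 1), each gene centred on its mean, over all tested features. The closest were AT5G27120, AT5G05180 and AT2G18970, at distances of 0.22, 0.24 and 0.25. AT5G27120 was at 16.2 and 6.11 FPKM in the WT libraries against 24.2 and 30.3 FPKM in the K36M libraries. For FUL the closest were AT2G43530, AT4G23680 and AT4G24110, at 0.06, 0.08 and 0.10. AT2G43530 was at 26.6 and 33.2 FPKM for WT, with 49.7 and 98.5 FPKM for K36M. None of the other flowering genes was among these.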

How the data were processed

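Per the labels' protocols, the leaf RNA libraries were stranded and selected for mRNA. Bowtie2, bedtools and the build TAIR10 appear in the submitters' processing notes with no role given, and the program behind the FPKM was not found in the sources used here. The authors deposited FPKM as a long table, and each library was assigned by the condition name its label quotes. As FPKM hold no depth per library, precision comes from the spread between replicates, with 2 libraries per group. In limma the variance of each feature is drawn towards a trend fitted over all tested features. The SEs, intervals and p-values of a gene therefore rest on the spread of other genes as well as its own.

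Values were taken as log2(FPKM + 1) where the mean reached 1 FPKM (17738 features). They were fitted with limma 3.58.1 in R 4.3.3 (lmFit, then eBayes with trend, two-sided), with Benjamini-Hochberg adjustment over all features. The fit was run on simulated data as a check of the code, with planted differences larger than those of the flowering genes. It does not show how often differences of their size would be called. RefSeq TAIR10.1 gave gene names for 32361 of 33069 single features and is another build than the files', so coordinates are left out. Python 3.11.15, pandas 2.3.3 and matplotlib 3.10.9 were used.

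The 10 genes and the 9 lists were chosen with earlier results of these data known, so lists are described by counts and medians without a test. All 10 genes are named. From each list up to 4 tested members with the largest differences were taken, besides FLC, SVP, SEP3, AP3, GI, FTIP1, TFL1, STM and SUC2, and the 3 features most like FT and like FUL. Other list members were named once their values were known. The alternatives tried were pseudocounts, filters, scalings, limma settings, a replicate block, removal of the gene span trend by loess, and each library left out. The counts of genes above or below WT without single libraries and the whole-number ratios were added after seeing the data.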

Additional observations from a re-analysis of the deposited data

How the results depend on the processing

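No flowering gene was called in any of the 16 alternative fits that tested it (limma). TSF, CO, LFY and CAL were tested only in the fit with no filter, and FT, FD and AP1 in all but that with a mean of at least 5 FPKM. FD had a positive difference in all of those that tested it. Leaving out a library cannot turn the sign of FT, FUL and AP1, whose groups do not overlap. The sign of SOC1 turned without WT replicate 2 (-0.41; range with single libraries left out -0.41 to 1.12) and that of AGL24 without WT replicate 2 (0.09) or K36M replicate 1 (range -0.72 to 0.47). The median of the tested flowering genes was 0.36 with a mean of at least 5 FPKM, where SOC1, AGL24 and FUL remained, and 0.66 to 1.05 with each library left out. Median scaling shifted the median of all features by 0.10, and the flowering genes' median relative to all features was 0.87 there and 0.89 without it. Over all features, 0 were called higher and 0 lower with no filter (limma, 1175 at an unadjusted p below 0.05) and with the replicate block (794). With the gene span trend removed 3 were called higher, and with the block as well 5 were called lower. Leaving out single libraries gave 0 to 192 called higher and 0 to 510 called lower, the highest counts both without WT replicate 2. None was called without K36M replicate 1 or 2 (216 and 151 at an unadjusted p below 0.05). These fits take a group's single remaining library to have the spread of the opposite group. The causes were not tested. Replicate numbers were not shown to pair the libraries (r = 0.13 between the groups' replicate differences, across genes, 2 pairs), and the replicate block left the flowering genes uncalled. Depth is unknown from FPKM, so no limit of detection is given.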

Other observations

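A few flowering genes that were too low to test were highest in WT replicate 1, and they are named here after their values were seen. FKF1, a blue light receptor that clears CDF repressors by day, was at 0.691 FPKM in WT replicate 1 and at 0, 0.0233 and 0 FPKM in WT replicate 2 and K36M replicates 1 and 2. AGL19, a MADS-box promoter of flowering, had 1.63 FPKM in WT replicate 1, against 0 FPKM in WT replicate 2 and 0.113 and 0.235 FPKM in K36M. TSF had the same order, with WT replicate 1 highest and WT replicate 2 lowest at 0. SMZ, an AP2-like repressor of FT, was lowest in that library, at 0.540 FPKM against 9.82 FPKM in WT replicate 2 and 7.94 and 6.01 FPKM in K36M. It was the 1 tested repressor with a difference above 0 (0.95 ± 0.89, SE; limma adjusted p = 0.9999).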
